A study of Mus musculus with 11 samples.

Results

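The 10 mouse genes that encode the coactivators YAP (Yap1) and TAZ (Wwtr1), the DNA-binding factors TEAD1 to TEAD4 (Tead1, Tead2, Tead3, Tead4) and their Vestigial-like competitors (Vgll1, Vgll2, Vgll3, Vgll4) were followed through 11 RNA-seq libraries of mouse liver cancer cell lines. They were taken by name out of 36528 gene IDs in the deposited tables, and all 10 were found. A filter on low counts kept 8 of them, which leaves Vgll1 and Vgll2 untested. Polyadenylated RNA came from lines grown out of liver tumours in 3 groups, each named for 1 mutant: TAZ-S89A (5 libraries), YAP-5SA (3 libraries, spelled YAP-S5A in the sample labels) and YAP-S127A (3 libraries). Replicate numbers used here follow the order of accession, are not from the labels and only name a library. TAZ-S89A is a form of TAZ, and YAP-5SA and YAP-S127A are forms of YAP, with alanine in place of serine. The sources used here do not give how the tumours were made, the promoter behind any introduced copy, or the age and strain of the mice. Lines free of such a mutation were not analysed here. Whether libraries within a group stem from separate tumours, lines or cultures is not in the labels, so a p-value covers no more than their spread, which may be technical. The mutant and the identity of the line cannot be told apart. For Yap1 and Wwtr1, reads of the gene itself and of an introduced mutant copy cannot be told apart either, and in bulk RNA fewer cells of a type and less RNA per cell cannot be told apart.

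YAP and TAZ do not bind DNA themselves. They bind a TEAD protein at its DNA motif and switch on genes there, and in the liver they are known for their part in bile duct development, organ size and tumour growth. LATS1 and LATS2, the last kinases of the Hippo pathway, add phosphate to serines in the sequence HxRxxS, after which 14-3-3 proteins hold them in the cytoplasm or the proteasome removes them. Vestigial-like proteins bind TEAD at the same surface as YAP and TAZ, and VGLL4 is known as a repressor of TEAD targets.

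The serine named in YAP-S127A follows human numbering. The bases around it and around the serine of TAZ-S89A are shown because these codons set the groups apart, with the serine codon in capitals. They are reference bases of the GRCm38 build read from GENCODE transcripts (release M21), not a mutant allele. The Yap1 stretch lies in exon 2 of a 488-codon model at chr9:8001621-8001674 on the minus strand, with the serine at codon 112. The Wwtr1 stretch lies in exon 2 of a 395-codon model at chr3:57574960-57575013 on the minus strand, with the serine at codon 89.
Yap1: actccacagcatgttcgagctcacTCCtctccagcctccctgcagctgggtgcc
Wwtr1: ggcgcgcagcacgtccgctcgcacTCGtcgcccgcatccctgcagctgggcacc
Of the 54 aligned bases 38 were identical, and 14 of the 18 codons encode the same amino acid. The Yap1 model holds 5 serine codons in the HxRxxS setting (codons 46, 94, 112, 149 and 382), and the Wwtr1 model holds 4 (codons 66, 89, 117 and 306). YAP-5SA is the field's name for YAP with alanine at all of these serines, and the labels do not list the positions.

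Libraries held 20071144 to 49159713 counts, and TAZ-S89A replicates 4 and 5, which carry sample IDs of a second series, were the shallowest. Not all TAZ-S89A libraries differed equally. A chi-square of counts over genes, per degree of freedom, was 2.08 between replicates 4 and 5 and 5.98 between replicates 1 and 2, against 110 to 236 for the other TAZ-S89A pairs. In YAP-5SA, replicate 2 stood apart at 90.2 and 143 from the other libraries, which were 16.8 apart. This chi-square grows with depth, so its size is not comparable between pairs of unlike depth. The Pearson correlation of log2 levels was 0.993 between TAZ-S89A replicates 4 and 5 and 0.996 between replicates 1 and 2. For the other TAZ-S89A pairs it was 0.977 to 0.989. Marker genes of liver cell types also differed between groups. Of 8 hepatocyte markers, 0 reached a mean of 1 CPM (counts scaled to a common library size) in TAZ-S89A, 1 in YAP-5SA and 1 in YAP-S127A. Their summed level was 0.775 to 1.10 CPM in TAZ-S89A, 6.74 to 7.86 in YAP-5SA and 8.78 to 10.1 in YAP-S127A, mostly from Hnf4a. Serpina1a had 0 counts in every group and albumin (Alb) averaged 0.00446, 0.0678 and 0.988 CPM in TAZ-S89A, YAP-5SA and YAP-S127A. Hnf4a averaged 0.677, 7.16 and 8.26 CPM in the same order. Other than Hnf4a, the listed markers of hepatocytes, the main cell type of the labelled tissue, were thus near absent. Of 6 biliary markers, 5 reached 1 CPM in each group, Epcam being the exception. Their sums ran 1758 to 3663 CPM in TAZ-S89A, 2720 to 4273 in YAP-5SA and 466 to 590 in YAP-S127A. Different genes made up these sums. Spp1 averaged 2737, 203 and 326 CPM in TAZ-S89A, YAP-5SA and YAP-S127A, Krt7 1.41, 1744 and 102, and Krt19 7.385, 1372 and 55.95. Stellate and fibroblast markers summed to 260 to 348, 259 to 361 and 3202 to 3553 CPM in the same order of groups, with 3, 2 and 3 of 7 at 1 CPM or more. Of these, Pdgfrb averaged 268, 1.12 and 474 CPM, and Col1a1 31.0, 322 and 2950 CPM. Lrat and Lum had 0 counts in TAZ-S89A and YAP-S127A. Macrophage and leukocyte markers summed to 7.81 to 9.13, 33.6 to 40.0 and 13.1 to 14.04 CPM, with 2 of 6 at 1 CPM or more in each group and Adgre1 and Clec4f at 0 counts in TAZ-S89A and YAP-S127A. Endothelial markers stayed at a sum of 2.497 CPM or less in every library, with 0, 0 and 1 of 6 at 1 CPM or more and Clec4g at 0 counts in YAP-S127A. The part of these differences in the results that follow was not tested.

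Among the 8 genes tested, Yap1 and Tead1 were lower and Tead2 was higher in TAZ-S89A than in each YAP group. Between the YAP groups, Wwtr1 and Vgll4 were higher in YAP-5SA, and Tead1, Tead2 and Tead3 were lower. Every comparison called a large share of all genes tested (edgeR's quasi-likelihood test, Benjamini-Hochberg adjusted p under 0.05), so the counts here are read against that share. Against YAP-5SA, TAZ-S89A differed in 6 of the 8 genes, 2 higher and 4 lower, beside 57.9% of 18224 genes tested, 26.9% higher and 31.0% lower. Against YAP-S127A it differed in 7 of 8, 3 higher and 4 lower, beside 57.6% of all genes, 27.0% higher and 30.6% lower. Against the mean of the YAP groups 5 of 8 differed, 2 higher and 3 lower, beside 58.7%, 28.2% higher and 30.5% lower. YAP-5SA differed from YAP-S127A in 5 of 8, 2 higher and 3 lower, beside 55.2%, 28.2% higher and 27.0% lower. The median log2 fold change of the 8 genes was -0.33, -0.12, -0.24 and -0.27 in these comparisons, beside -0.04, -0.03, -0.01 and 0.01 over all genes tested. The comparisons share libraries and are not independent. With 8 genes, such counts are too few to be set apart from the shares of all genes, and nothing is read from them about the genes as a group.

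**Figure D1:**
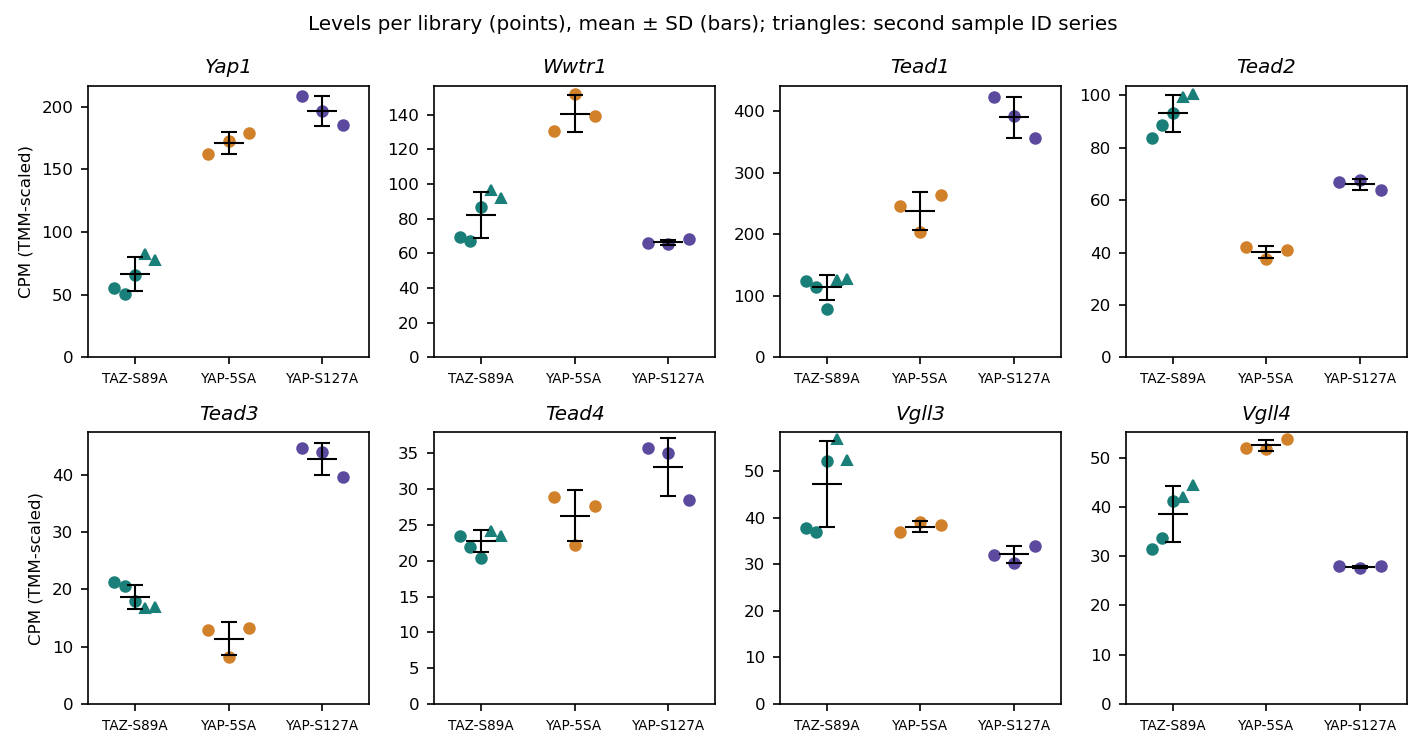
Level of each tested gene in CPM scaled by TMM (vertical axes, linear and starting at 0) in TAZ-S89A, YAP-5SA and YAP-S127A libraries. Points are libraries, triangles are TAZ-S89A replicates 4 and 5, and horizontal bars with whiskers are the mean ± SD (n = 5, 3 and 3). The TAZ-S89A points are lowest for Yap1 and Tead1 and highest for Tead2, and the YAP-5SA points are highest for Wwtr1 and Vgll4 and lowest for Tead3.

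Yap1 (Entrez gene 22601, chromosome 9, 7931999 to 8004638 in GRCm38) encodes the coactivator that is itself mutated in the YAP lines. It stood at 55.3, 50.8, 66.05, 82.3 and 78.1 CPM in TAZ-S89A replicates 1 to 5, at 162, 173 and 179 CPM in YAP-5SA, and at 209, 197 and 185 CPM in YAP-S127A. No library of one group reached into the range of another. The log2 fold change of Yap1 in TAZ-S89A was -1.36 against YAP-5SA (SE 0.17, adjusted p = 7.73e-06) and -1.57 against YAP-S127A (SE 0.17, adjusted p = 2.23e-06) in edgeR's quasi-likelihood fit. Both differences were larger than the spread between libraries. YAP-5SA libraries lay below those of YAP-S127A, but the difference of -0.20 was not called (95% interval -0.61 to 0.20, edgeR adjusted p = 0.385). Yap1 shares 116 of its 9257 exon bases with the opposite-strand gene Gm20416, and whether the counts use strand is not stated.

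Wwtr1 (Entrez gene 97064, chromosome 3, 57455644 to 57575910), which encodes TAZ, was highest in YAP-5SA and not in the lines named for TAZ. Its level was 69.2, 67.2, 86.8, 96.3 and 92.0 CPM in TAZ-S89A, 131, 152 and 139 CPM in YAP-5SA, and 65.8, 65.3 and 68.2 CPM in YAP-S127A. The TAZ-S89A libraries all lay under YAP-5SA, whereas replicate 2 lay within the range of YAP-S127A. In edgeR's fit Wwtr1 was lower in TAZ-S89A than in YAP-5SA, at -0.77 on the log2 scale (SE 0.14, adjusted p = 0.000363). Against YAP-S127A the difference of 0.31 was not called (95% interval -0.01 to 0.63, edgeR adjusted p = 0.0876), although it was without TAZ-S89A replicate 2 (adjusted p = 0.0420). Between the YAP groups, Wwtr1 was higher in YAP-5SA by 1.08 (SE 0.16, edgeR adjusted p = 7.61e-05).

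The balance of the pair differed in all 3 groups. As a share of summed nRPKM, the authors' RPKM with a size factor per library, Wwtr1 made up 52.2% ± 1.45 of Yap1 plus Wwtr1 in TAZ-S89A, 41.8% ± 1.56 in YAP-5SA and 22.8% ± 1.41 in YAP-S127A (SD, n = 5, 3 and 3). The ranges of 50.6% to 53.7%, 40.5% to 43.6% and 21.6% to 24.4% did not overlap. The summed level of the pair was 27.3 ± 5.95 nRPKM in TAZ-S89A, 57.2 ± 2.95 in YAP-5SA and 49.9 ± 2.59 in YAP-S127A. TAZ-S89A thus held the lowest sum and the highest Wwtr1 share.

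**Figure D2:**
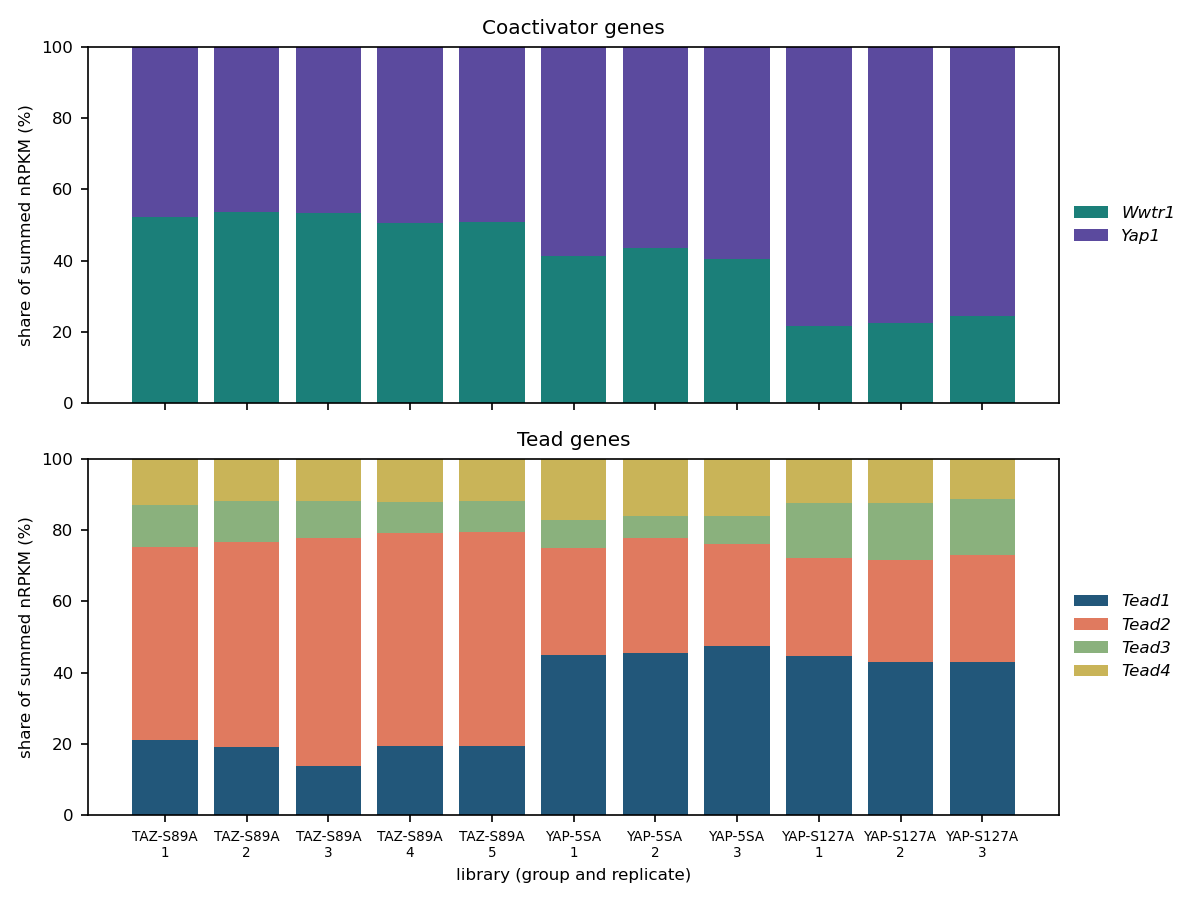
Share of summed nRPKM (vertical axes, percent) taken by Wwtr1 and Yap1 in the upper panel and by the 4 Tead genes in the lower panel, with 1 bar per library. Wwtr1 takes 50.6% to 53.7% of the pair in TAZ-S89A, 40.5% to 43.6% in YAP-5SA and 21.6% to 24.4% in YAP-S127A, and Tead2 takes the largest part of the TAZ-S89A bars.

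Tead1 (Entrez gene 21676, chromosome 7, 112679356 to 112906784) encodes one of the 4 TEAD factors, which share a DNA-binding domain and a surface for YAP and TAZ. It had 125, 114, 78.05, 126 and 126.5 CPM in TAZ-S89A, 246, 203 and 264 CPM in YAP-5SA, and 422, 392 and 356 CPM in YAP-S127A. The 3 groups did not overlap, and TAZ-S89A replicate 3 lay below the other libraries of its group. Tead1 was lower in TAZ-S89A, with a log2 fold change of -1.06 against YAP-5SA (SE 0.18, adjusted p = 0.000187) and of -1.78 against YAP-S127A (SE 0.18, adjusted p = 1.59e-06) in edgeR's fit. It was also lower in YAP-5SA than in YAP-S127A, at -0.71 (SE 0.21, edgeR adjusted p = 0.00987).

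Tead2 (Entrez gene 21677, chromosome 7, 45215792 to 45233468), on the same chromosome, ran the other way. It stood at 83.6, 88.8, 93.2, 99.5 and 100.4 CPM in TAZ-S89A, 42.3, 37.6 and 40.8 CPM in YAP-5SA, and 66.8, 67.5 and 63.7 CPM in YAP-S127A. All TAZ-S89A libraries lay above all YAP libraries, and YAP-5SA lay below YAP-S127A. The log2 fold change in TAZ-S89A was 1.21 against YAP-5SA (SE 0.12, adjusted p = 8.16e-07) and 0.50 against YAP-S127A (SE 0.11, adjusted p = 0.00209), and that of YAP-5SA against YAP-S127A was -0.71 (SE 0.13, adjusted p = 0.000283), all by edgeR. Tead2 shares 13 of its 4788 exon bases with the opposite-strand gene Cd37, which had 25 counts over all libraries.

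Tead3 (Entrez gene 21678, chromosome 17, 28331671 to 28350805) was the member with the widest gap between the YAP groups. It had 21.3, 20.6, 17.9, 16.7 and 16.99 CPM in TAZ-S89A, 12.8, 8.13 and 13.2 CPM in YAP-5SA, and 44.7, 43.9 and 39.6 CPM in YAP-S127A. TAZ-S89A lay between the YAP groups with no overlap. The log2 fold change of YAP-5SA against YAP-S127A was -1.91 (SE 0.18, adjusted p = 9.47e-07), in edgeR's fit. That of TAZ-S89A was 0.71 against YAP-5SA (SE 0.16, edgeR adjusted p = 0.00187) and -1.19 against YAP-S127A (SE 0.15, edgeR adjusted p = 1.65e-05). Set against the mean of the YAP groups Tead3 was not called (log2 fold change -0.24, edgeR adjusted p = 0.137), since these differences have opposite signs.

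Tead4 (Entrez gene 21679, chromosome 6, 128227143 to 128300813) varied least of the Tead genes. Its level was 23.5, 21.9, 20.4, 24.2 and 23.5 CPM in TAZ-S89A, 28.9, 22.2 and 27.7 CPM in YAP-5SA, and 35.7, 35.1 and 28.5 CPM in YAP-S127A. YAP-5SA overlapped both other groups, which did not overlap each other. Only TAZ-S89A against YAP-S127A was called among the pairwise comparisons, at -0.54 (SE 0.13, edgeR adjusted p = 0.00208). The interval ran from -0.48 to 0.06 for TAZ-S89A against YAP-5SA (edgeR adjusted p = 0.171) and from -0.64 to -0.03 for YAP-5SA against YAP-S127A (edgeR adjusted p = 0.0596). The difference between the YAP groups was called without YAP-S127A replicate 3, the lowest of its group (adjusted p = 0.0333).

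**Figure D3:**
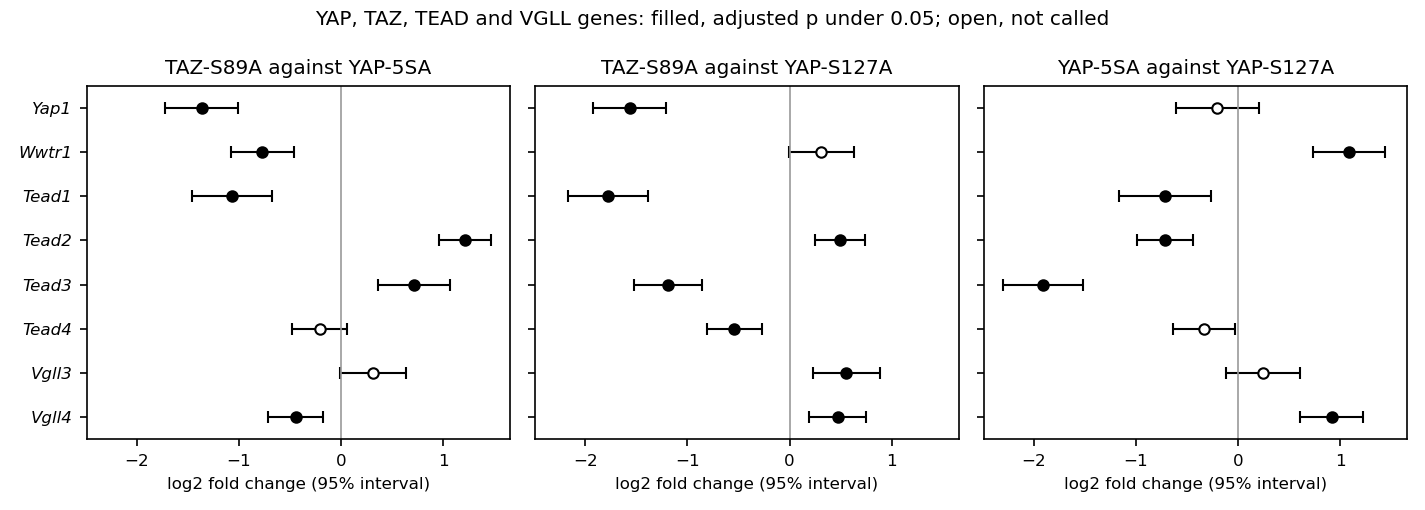
Log2 fold change (horizontal axes) of each tested gene in the 3 pairwise comparisons, with 95% intervals from edgeR's quasi-likelihood fit. Filled points have an adjusted p under 0.05, open points do not. Yap1 and Tead1 lie left of 0 and Tead2 right of 0 in both TAZ-S89A panels, while Wwtr1, Tead3 and Vgll4 lie on opposite sides of 0 in them, Wwtr1 with an open point against YAP-S127A.

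Divided by length, Tead2 held a larger and Tead1 a smaller part of the Tead sum in TAZ-S89A than in either YAP group, and Tead3 and Tead4 set the YAP groups apart. Tead2 held 59.2% ± 3.50 of the summed Tead nRPKM in TAZ-S89A, 30.4% ± 2.05 in YAP-5SA and 28.7% ± 1.24 in YAP-S127A. Tead1 held 18.5% ± 2.74, 45.9% ± 1.36 and 43.6% ± 0.963 in the same order of groups. The smaller shares were 10.2% ± 1.51, 7.23% ± 1.06 and 15.8% ± 0.136 for Tead3 and 12.1% ± 0.446, 16.4% ± 0.621 and 11.9% ± 0.681 for Tead4 (SD, n = 5, 3 and 3). So Tead3 held a lower mean share in YAP-5SA than in either other group, by CPM as well (7.59% in TAZ-S89A, 3.57% in YAP-5SA and 8.04% in YAP-S127A). The Tead4 share per length was highest in YAP-5SA, but by CPM it was highest in TAZ-S89A (9.18%, against 8.32% in YAP-5SA and 6.21% in YAP-S127A). Which Tead gene ranks first in TAZ-S89A depends on the division by length, because the authors' Tead1 model is 3.88 times as long as that of Tead2. By CPM, Tead1 held 45.5% and Tead2 37.7% of the TAZ-S89A sum. On either scale the Tead1 share was lower and the Tead2 share higher in TAZ-S89A than in both YAP groups.

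Vgll4 (Entrez gene 232334, chromosome 6, 114860621 to 114970007), the family's best known repressor of TEAD targets, was highest in YAP-5SA. It had 31.4, 33.7, 41.3, 42.1 and 44.5 CPM in TAZ-S89A, 52.0, 51.8 and 53.8 CPM in YAP-5SA, and 28.0, 27.6 and 28.0 CPM in YAP-S127A. TAZ-S89A lay between the YAP groups and overlapped neither. The log2 fold change of Vgll4 was 0.91 in YAP-5SA against YAP-S127A (SE 0.14, adjusted p = 9.90e-05), -0.45 in TAZ-S89A against YAP-5SA (SE 0.13, adjusted p = 0.00753) and 0.47 in TAZ-S89A against YAP-S127A (SE 0.13, adjusted p = 0.00683) by edgeR. Fitted on the libraries of TAZ-S89A and YAP-5SA alone, the difference between them was not called (edgeR adjusted p = 0.0502). Vgll4 and Wwtr1 thus gave the same order of the YAP groups, and Tead3 the reverse.

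Vgll3 (Entrez gene 73569, chromosome 16, 65815189 to 65866368), known as a TEAD cofactor, had its highest mean in TAZ-S89A. Its level was 37.7, 37.0, 52.2, 57.0 and 52.4 CPM in TAZ-S89A, 36.8, 39.1 and 38.4 CPM in YAP-5SA, and 32.1, 30.4 and 34.0 CPM in YAP-S127A. Replicates 1 and 2 of TAZ-S89A lay within YAP-5SA, and the other 3 lay above every YAP library. Against YAP-S127A the log2 fold change was 0.56 (SE 0.15, edgeR adjusted p = 0.00683). The difference from YAP-5SA was not called at 0.31 (95% interval -0.02 to 0.64, edgeR adjusted p = 0.0954), but it was without TAZ-S89A replicate 1 (0.0401) or replicate 2 (0.0339). YAP-5SA against YAP-S127A gave 0.25 and was not called either (edgeR adjusted p = 0.231).

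Vgll2 and Vgll1 were at or near the detection limit. Vgll2 had 1, 6, 2, 5 and 6 counts in the TAZ-S89A libraries, 0, 1 and 4 in YAP-5SA, and 0, 1 and 1 in YAP-S127A. Pooled over each group this was 0.117 CPM in TAZ-S89A (exact Poisson 95% interval 0.0718 to 0.182), 0.0415 in YAP-5SA (0.0135 to 0.0968) and 0.0180 in YAP-S127A (0.00218 to 0.0649), intervals that cover counting error only. The TAZ-S89A interval lay above that of YAP-S127A and overlapped that of YAP-5SA. Vgll1 had 0 counts in all 11 libraries, which allows up to 0.0176 CPM in TAZ-S89A, 0.0249 in YAP-5SA and 0.0270 in YAP-S127A (3 counts over each group). Vgll4 and Vgll3 therefore made up the family here, with Vgll4 at 59.9% ± 1.87 of summed Vgll nRPKM in TAZ-S89A, 71.7% ± 0.692 in YAP-5SA and 61.4% ± 1.16 in YAP-S127A.

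Ranked per length, Tead2 was the most abundant of the 10 genes in TAZ-S89A, at 25.9 to 33.5 nRPKM, and no other member overlapped it. Below it came Wwtr1, Yap1, Tead1, Vgll4, Tead4, Vgll3 and Tead3 by their means, and the range of each overlapped its neighbours in this order. Within every TAZ-S89A library, Wwtr1 still exceeded Yap1, Yap1 exceeded Tead1 and Vgll4 exceeded Tead4. The other neighbouring pairs of these genes did not keep their order in every library. In YAP-5SA the order was Yap1 (31.6 to 34.8 nRPKM), Wwtr1, Tead1, Tead2, Vgll4, Tead4, Vgll3 and Tead3 (2.20 to 3.59 nRPKM), and no neighbours overlapped. In YAP-S127A it was Yap1 (35.8 to 41.1 nRPKM), Tead1, Tead2, Tead3, Wwtr1, Tead4, Vgll4 and Vgll3, where only Tead3 and Wwtr1 overlapped. Yap1 therefore led both YAP groups, while Tead3 stood last in YAP-5SA and just above Wwtr1 in YAP-S127A. The summed Tead level was 50.4 ± 4.89 nRPKM in TAZ-S89A, 42.3 ± 4.97 in YAP-5SA and 73.7 ± 5.83 in YAP-S127A. Per unit of Yap1 plus Wwtr1 it was 1.90 ± 0.308 in TAZ-S89A, 0.741 ± 0.112 in YAP-5SA and 1.48 ± 0.0490 in YAP-S127A. The summed Vgll level per unit of Tead was 0.259 ± 0.0391, 0.351 ± 0.0423 and 0.125 ± 0.0115 in the same order of groups. YAP-5SA thus had the least Tead and YAP-S127A the least Vgll transcript in these ratios, which describe mRNA and not protein.

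Inside TAZ-S89A, the libraries of the second ID series (replicates 4 and 5) were compared with those of the first (replicates 1 to 3) in edgeR's fit with TAZ-S89A split by the series. Yap1 was the only member called of the 8, higher in the second series by 0.48 (SE 0.13, adjusted p = 0.0183), beside 24.8% of 18736 genes tested, 10.5% higher and 14.3% lower. The other 7 ranged between -0.24 (Tead3) and 0.37 (Vgll3), and Vgll3 (adjusted p = 0.0789) and Wwtr1 (0.34, adjusted p = 0.0812) came nearest to a call. Even the higher series of TAZ-S89A, at 78.1 and 82.3 CPM of Yap1, lay far under the lowest YAP library at 162 CPM. The ID series is no more than a run of numbers in the labels. Replicate 3 belongs to the first series, but by the chi-square it stood 122 and 110 from replicates 1 and 2.

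Fold changes of the tested genes near each member, and over its chromosome, were set beside its own. For Yap1 the 10 nearest tested genes, 5 on each side, had a median log2 fold change of -0.37 in TAZ-S89A against YAP-5SA and -0.41 against YAP-S127A, where Yap1 had -1.36 and -1.57. The adjoining genes Birc2 and Birc3, inhibitors of apoptosis, had -0.24 and -0.15 against YAP-5SA and -0.33 and 0.01 against YAP-S127A. All 10 neighbours together ranged from -4.79 to 0.39 against YAP-5SA, with 9 below 0. Against YAP-S127A they ranged from -6.92 to 3.19, with 7 below 0. Chromosome 9 as a whole was also lower in TAZ-S89A, with medians of -0.56 and -0.67 over 907 other genes. Chromosome 7, which holds Tead1 and Tead2, had medians of -0.54 and -0.70 over 1247 genes. Tead1 at -1.06 and -1.78 lay beside or below its neighbours (medians -0.9999 and -1.14), whereas Tead2 at 1.21 and 0.50 lay above both its neighbours (0.28 and -0.27) and its chromosome. The neighbours of Wwtr1 had a median of 0.88 in YAP-5SA against YAP-S127A, beside 1.08 for Wwtr1 and 0.29 for chromosome 3. Tead3 had -1.91 in that comparison, its neighbours -1.17 and chromosome 17 -0.70. The median of Vgll4 neighbours was 0.51 beside 0.91 for Vgll4 and -0.10 for chromosome 6, and that of Vgll3 neighbours was -0.36 beside 0.25 for Vgll3. Tead2 had -0.71 there, beside -0.57 for its neighbours. In TAZ-S89A against YAP-5SA, Wwtr1 had -0.77, its neighbours -0.71 and chromosome 3 -0.08. Tead3 at 0.71 lay below its neighbours (1.11) and chromosome 17 (0.95). Against YAP-S127A, Wwtr1 had 0.31, its neighbours -0.48 and chromosome 3 0.18. Tead3 at -1.19 lay below its neighbours (-0.10) and chromosome 17 (0.20). Copy number was not measured in these data, and the part of the surrounding chromosome in these results was not tested.

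**Figure D4:**
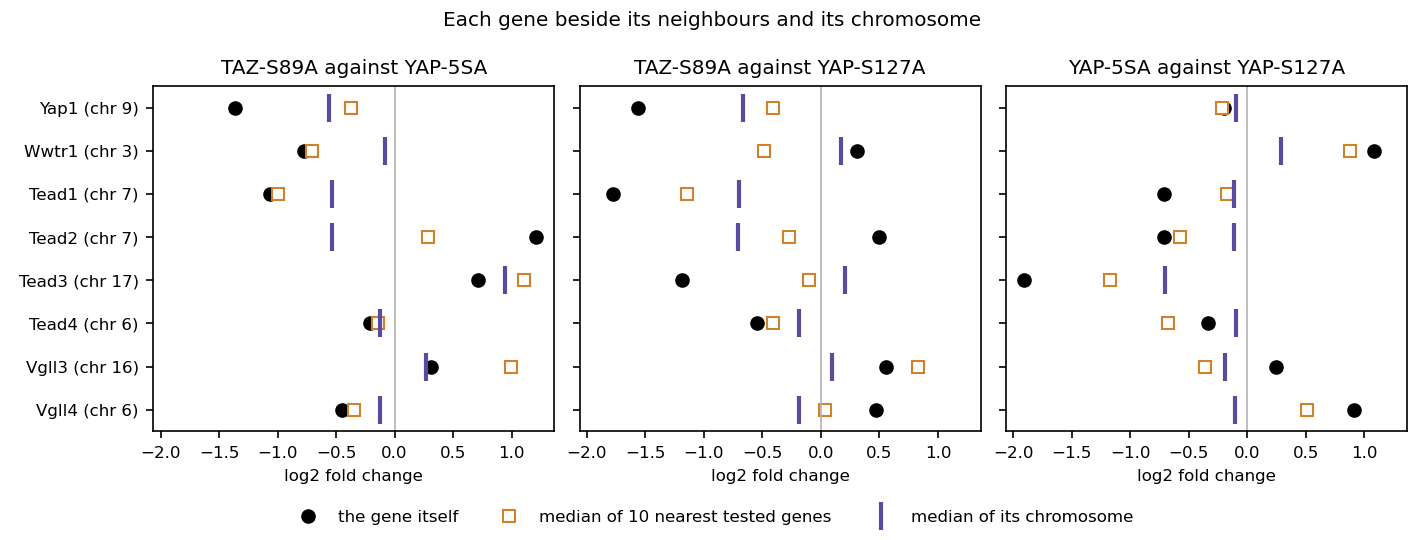
Log2 fold change (horizontal axes) of each tested gene (filled points), the median of its 10 nearest tested genes (open squares) and the median of its chromosome (bars) in the 3 pairwise comparisons. Tead2 lies to the right of both its medians in the TAZ-S89A panels. In the YAP-5SA against YAP-S127A panel every gene except Vgll3 lies on the same side of 0 as its neighbours.

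The rest of the pathway was described by 5 lists of genes. Of 26 Hippo kinases and upstream regulators, 5 were higher and 10 lower in TAZ-S89A against YAP-5SA (median -0.14), 6 higher and 10 lower against YAP-S127A (median -0.02), and 8 higher and 7 lower in YAP-5SA against YAP-S127A (median 0.08), all by edgeR at an adjusted p under 0.05. Over all genes tested 26.9% were higher and 31.0% lower in TAZ-S89A against YAP-5SA, 27.0% and 30.6% against YAP-S127A, and 28.2% and 27.0% in YAP-5SA against YAP-S127A. The calls in this list were near those shares. Map4k3, a kinase that acts on LATS beside MST1 and MST2, averaged 98.5 ± 15.03 CPM in TAZ-S89A, 21.6 ± 1.66 in YAP-5SA and 101 ± 4.41 in YAP-S127A (SD, n = 5, 3 and 3). Its log2 fold change in YAP-5SA against YAP-S127A was -2.23 (SE 0.16, edgeR adjusted p = 6.23e-08). Rassf1, a scaffold of the MST kinases, was 41.2 ± 8.92, 75.9 ± 8.18 and 160.0 ± 13.3 CPM in the same order of groups and was called in every pairwise comparison. Tnik, of the same kinase family as Map4k3, had 0.690 ± 0.226, 0.569 ± 0.148 and 13.4 ± 0.942 CPM. Wtip, an Ajuba-family LIM protein that restrains LATS, averaged 16.2 ± 1.28 CPM in TAZ-S89A, against 40.2 ± 4.80 in YAP-5SA and 42.4 ± 1.78 in YAP-S127A. Map4k3, Rassf1, Tnik and Wtip were named for a large fold change of TAZ-S89A against the YAP mean in the same libraries. Their calls in comparisons with TAZ-S89A are thus no separate evidence. Among 7 genes for 14-3-3 proteins, 1 was higher and 0 were lower in TAZ-S89A against each YAP group, and 1 was higher and 1 lower in YAP-5SA against YAP-S127A. Their medians were -0.24, 0.29 and 0.38, and the share called was below that of all genes (57.9%, 57.6% and 55.2%).

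Genes for proteins that bind YAP, TAZ or TEAD included several that were lower in TAZ-S89A than in both YAP groups. Of 19 tested out of 21, 4 were higher and 10 lower against YAP-5SA (median -0.47), 2 higher and 8 lower against YAP-S127A (median -0.33), and 4 higher and 4 lower in YAP-5SA against YAP-S127A (median -0.11). Beside them, 26.9% of all genes were higher and 31.0% lower against YAP-5SA, and 27.0% and 30.6% against YAP-S127A. Between the YAP groups these shares were 28.2% and 27.0%. Against YAP-S127A the total called, higher and lower together, was near the 57.6% of all genes. That holds for the total and not for each direction alone. Amotl1, an angiomotin that tethers YAP at junctions, averaged 41.4 ± 6.97 CPM in TAZ-S89A, 214 ± 37.0 in YAP-5SA and 265 ± 15.4 in YAP-S127A. Its relative Amotl2 stood at 271 ± 24.6, 813 ± 144 and 683 ± 38.7 CPM. Ptpn14, a phosphatase that binds YAP, had 109 ± 15.3, 380.4 ± 68.1 and 232 ± 17.8 CPM, and was higher in YAP-5SA than in YAP-S127A by 0.71 (SE 0.20, edgeR adjusted p = 0.00750). In each of these 3 genes the TAZ-S89A level was lower than that of both YAP groups (edgeR adjusted p from 1.35e-08 to 0.000110). They were named for a large fold change of TAZ-S89A against the YAP mean in the same libraries. Small p-values follow from that choice and are no separate evidence. Among 10 genes for turnover of YAP and TAZ, 2 were higher and 3 lower in TAZ-S89A against YAP-5SA, 4 higher and 1 lower against YAP-S127A, and 5 higher and 2 lower in YAP-5SA against YAP-S127A, with medians of -0.21, 0.22 and 0.53, beside 57.9%, 57.6% and 55.2% of all genes called in either direction. The deubiquitinase gene Otub2 averaged 12.0 ± 0.952 CPM in TAZ-S89A, 5.48 ± 0.628 in YAP-5SA and 17.5 ± 1.06 in YAP-S127A. Usp10, another deubiquitinase gene, averaged 107 ± 9.24, 62.9 ± 2.53 and 89.3 ± 4.04 CPM, and the casein kinase gene Csnk1e 141 ± 16.8, 188 ± 27.8 and 178 ± 14.8 CPM.

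Conserved YAP and TAZ target genes were more often lower than higher in TAZ-S89A. Of 22 tested, 7 were higher and 13 lower against YAP-5SA (median -0.73), and 5 higher and 14 lower against YAP-S127A (median -0.61). Over all genes tested 26.9% were higher and 31.0% lower against YAP-5SA, and 27.0% and 30.6% against YAP-S127A. Between the YAP groups, 7 of the 22 genes were higher in YAP-5SA, 7 were lower and 8 were not called (median -0.24). Over all genes tested 28.2% were higher and 27.0% lower in that comparison, and the calls in this list were near those shares. Nt5e, the ecto-nucleotidase CD73, averaged 1.59 ± 0.322 CPM in TAZ-S89A, 13.5 ± 4.33 in YAP-5SA and 16.6 ± 1.21 in YAP-S127A. Ccn2, a secreted matrix protein used as a readout of YAP activity, averaged 234 ± 85.6, 634 ± 15.8 and 708 ± 15.9 CPM. Dock5, an exchange factor for Rac, averaged 25.5 ± 6.56, 76.7 ± 12.1 and 93.9 ± 7.40 CPM. Fjx1, the counterpart of Drosophila four-jointed, ran against these, at 28.1 ± 4.45 CPM in TAZ-S89A, 2.59 ± 0.205 in YAP-5SA and 3.82 ± 0.645 in YAP-S127A, which is 3.44 on the log2 scale against YAP-5SA (SE 0.18, edgeR adjusted p = 1.39e-09). Nt5e, Ccn2, Dock5 and Fjx1 were named for a large fold change of TAZ-S89A against the YAP mean in the same libraries. The small p-value of Fjx1 follows from that choice and is no separate evidence. Amotl2, Ptpn14 and Lats2 are in this list and in another of the 5.

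The genes most like each member over the 11 libraries were found by the root mean square difference of log2 CPM after each gene was centred on its mean, among 11038 genes. The closest to Yap1 were Ank (0.10), Rai14 (0.14) and Tmem144 (0.15), where the median gene stood at 0.90. Wwtr1 was closest to Plk2 (0.08), Metap1 (0.09) and Lmo4 (0.09), of which Metap1 and Lmo4 are also on chromosome 3. For Tead1 these were Cflar (0.08), Fyco1 (0.11) and Map4 (0.13), and for Tead2 they were St6galnac4 (0.07), Brd2 (0.08) and Zbtb22 (0.08). Tead3 was close to Man2a2 (0.12) and Tmc4 (0.14), and Tead4 to Elmo2 (0.07), Rab43 (0.09) and Dctn1 (0.09). Rab43 and Dctn1 are on chromosome 6, as is Tead4. Vgll3 lay nearest to Ctbp1 (0.06), Mmachc (0.08) and Nudc (0.08), and Vgll4 to Gosr2 (0.08), Dclre1b (0.09) and Phykpl (0.09). No member was among the 3 closest genes of another member. These distances are descriptions over 11 libraries that fall into 3 groups.

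Several of the members carry the letters of the TEAD motif, GGAATG, close to their own start. In RefSeq promoter windows of GRCm38.p6, 250 bases before to 50 after each annotated start, GGAATG on either strand was found for 6 of the 8 members with a window (Yap1, Wwtr1, Tead3, Vgll1, Vgll3 and Vgll4), beside 16.6% of 27025 genes and 14.7% of 32851 windows. The matches of Tead3, which also differed between groups, and of Vgll1 are not shown. Those of the coactivator genes and of the expressed Vgll genes, which differed between groups, are shown as examples. The motif is in capitals in these matches (CATTCC where it is read on the other strand). They lie at chr9:8004717-8004752, minus strand, 141 bases before the Yap1 start, at chr3:57576026-57576061, minus strand, 136 and 170 bases before 2 annotated Wwtr1 starts, at chr6:114969265-114969300, minus strand, 82 bases before a Vgll4 start, and at chr16:65815111-65815146, plus strand, 63 bases before the Vgll3 start.
Yap1: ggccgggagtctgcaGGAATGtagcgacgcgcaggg
Wwtr1: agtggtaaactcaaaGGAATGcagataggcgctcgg
Vgll4: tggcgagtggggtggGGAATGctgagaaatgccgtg
Vgll3: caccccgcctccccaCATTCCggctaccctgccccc
Of these genes, Yap1 was lowest in TAZ-S89A, Wwtr1 and Vgll4 were highest in YAP-5SA, and Vgll3 had its highest mean in TAZ-S89A. Tead2, which was called in every pairwise comparison, had a window with no match, as did Vgll2. Tead1, also called in every pairwise comparison, and Tead4 had no window to search. Any link between the motif and these levels was not tested. A match is a description of letters and not a binding site, and binding was not measured here.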

How the data were processed

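The members and lists were chosen with earlier results of these data known. Reads were aligned with GSNAP to GRCm38, per the submitters' processing notes. The deposited tables give, per the file headers, a count of uniquely aligned reads per Entrez gene model and nRPKM, an RPKM that the authors adjusted with a size factor per library. The aligner version, annotation and strand setting are not stated. Symbols came from RefSeq GRCm38.p6 for 31049 of 36528 IDs, and the 5479 others held 2.91% of counts. Counts were tested with edgeR 4.0.16 in R 4.3.3 (TMM, filterByExpr, robust quasi-likelihood fit of 3 groups over 11 libraries, Benjamini-Hochberg over 18224 genes, threshold 0.05). nRPKM was used without a test, for levels between genes. The named genes were the 10 members, up to 4 called genes per list with the largest fold change of TAZ-S89A against the YAP mean, and the 3 most similar genes per member. Results that this rule selected but that are withheld are left out. Birc2 and Birc3 were added after their values were seen. Scripts were tested on simulated counts. Alternatives included limma-voom (limma 3.58.1) and DESeq2 1.42.0.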

Additional observations from a re-analysis of the deposited data

Results flagged for a closer look

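In TAZ-S89A, 22 quantities of the members and their families were checked for a library standing apart from the other 4, and 2 were flagged. Both concern Tead1 in replicate 3, whose level of 78.05 CPM left a gap to the next library of 0.736 of the group's range, beside a critical value of 0.71. Its Tead1 share of summed Tead nRPKM, 13.81%, left a gap of 0.732 of the range. Chance flags about 1 in 20 groups, and these quantities are not independent. Groups of 3 libraries were not checked.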

How the results depend on the processing

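The 32 member results (8 genes in 4 comparisons) were recomputed under 20 or 21 alternatives each: RLE and upper-quartile factors, DESeq2, limma-voom, no or a stricter low-count filter, only the groups compared (pairwise comparisons), a covariate for the ID series, the second ID series left out, the close TAZ-S89A pairs summed, and each library left out. Direction and call were kept throughout by 23 of the 32, and by 647 of 664 values. Only Vgll4 in TAZ-S89A against the YAP mean, never called at 0.01, changed sign: to -0.110 with the covariate, -0.108 without the second series, -0.00035 without TAZ-S89A replicate 4 and -0.0185 without replicate 5, the lowest of a range up to 0.0799 over libraries left out. In that comparison Tead4 lost its call with the pairs summed (adjusted p = 0.0507) and Vgll3 without the second series (0.0684), while Wwtr1 was called with the covariate (0.00657) and without the second series (0.0145), and Tead3 without YAP-5SA replicate 2 (0.0137). Vgll4 in TAZ-S89A against YAP-5SA lost its call with only those groups fitted (0.0502), and Tead4 in YAP-5SA against YAP-S127A gained one with only those groups (0.0449), the covariate (0.0320) or without the second series (0.0329). Adjusted p-values are from edgeR. Without the filter Vgll2 was called in TAZ-S89A against the YAP mean (2.08, adjusted p = 0.0393). It was not called against YAP-5SA (adjusted p = 0.189) or YAP-S127A (0.0575) alone. These values rest on 20 pooled counts in TAZ-S89A, 5 in YAP-5SA and 2 in YAP-S127A. By CPM, not divided by length, the Wwtr1 share was 55.5% for TAZ-S89A, 45.1% for YAP-5SA and 25.3% for YAP-S127A. The Tead1 share was 45.5%, 75.3% and 73.3% in that order. The cause was not tested beyond the length of the models. No paired analysis was possible because the labels give no replicate numbers, those used here being names in accession order. Depth limits Vgll1 and Vgll2 alone among the members.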
